A study of Mus musculus with 4 samples.

Results

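The Hox genes encode homeodomain transcription factors that lie in 4 clusters in the mouse genome, Hoxa on chromosome 6, Hoxb on chromosome 11, Hoxc on chromosome 15 and Hoxd on chromosome 2. They were described here in regenerating digit tips of mice in which Sp6, Sp8 or both had been conditionally knocked out (cKO). Members were chosen by gene symbol alone: every gene named Hoxa, Hoxb, Hoxc or Hoxd with a number, except Hoxc13, was kept, which gave 38 of the 45706 genes in the count table. They comprised 11 Hoxa, 10 Hoxb, 8 Hoxc and 9 Hoxd genes. The Hoxb genes lie on the same chromosome as Sp6, within 1 Mb of it.

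Genes of a Hox cluster are numbered from the 3′ to the 5′ end, and genes with the same number in different clusters are paralogues that arose from a common ancestral gene. In the embryo, genes with low numbers act towards the head and genes with high numbers towards the tail. In the developing limb, Hoxa and Hoxd genes with high numbers pattern the segments from the shoulder outwards, and Hoxa13 and Hoxd13 are needed for the digits. Adult limb fibroblasts keep much of this code as a memory of position. Sp6 and Sp8 are zinc finger transcription factors of the limb ectoderm that are needed for outgrowth of the limb bud.

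One RNA library was available for each of 4 groups, all of digit tips collected 14 days after amputation with tissue above the distal interphalangeal joint trimmed off. The groups were an Sp6 cKO, an Sp8 cKO, an Sp6+Sp8 cKO and a wildtype digit tip. Mice were given tamoxifen (75 mg/kg a day for 5 days, then 5 days of rest) to delete the genes before amputation. The sources used here do not state the Cre driver, the strain, how many digits or animals were pooled, which limb was used, or whether wildtype mice also had tamoxifen. The 3 cKO libraries were labelled batch 1 and the wildtype library batch 3. Wherever a cKO library is set against wildtype, the knockout and the batch cannot be told apart, and the 3 comparisons among cKO libraries lie within 1 batch. With 1 library a group no test was possible, and the intervals in parentheses are exact 95% intervals for counting error only. In tissue RNA, fewer cells of a type and less RNA per cell cannot be told apart.

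Library totals lay between 12588511 and 21834883 counts. Levels are given as CPM, the counts of a gene per 1000000 counts of the library after TMM scaling, and a gene with 0 counts is limited by 3 counts, or 0.138 to 0.238 CPM across libraries. Sp6 was at 29.2 CPM in the Sp6 cKO, 95.6 in the Sp8 cKO, 57.8 in the Sp6+Sp8 cKO and 97.7 in the wildtype library, and Sp8 at 66.1 CPM in the Sp6 cKO, 16.8 in the Sp8 cKO, 13.4 in the Sp6+Sp8 cKO and 63.9 in the wildtype library. Both targeted genes were thus lowest where the labels say they were deleted, and neither was at 0. Xist, the RNA that silences an X chromosome in female cells, was at 1963 CPM in the Sp6 cKO, 27.9 in the Sp8 cKO, 3528 in the Sp6+Sp8 cKO and 1526 in the wildtype library, so the makeup by sex was not the same. In every comparison with the Sp8 cKO library, also within batch 1, the knockout and the makeup by sex cannot be told apart. Of 12 fibroblast and limb mesenchyme markers all 12 were detected, with sums of 13021 to 16471 CPM, while the 5 skeletal muscle markers summed to at most 1.23 CPM in any library.

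The summed level of the Hox genes was nearly equal in the 4 libraries. It was 282 CPM (273 to 292) in the Sp6 cKO, 275 CPM (266 to 285) in the Sp8 cKO, 269 CPM (261 to 277) in the Sp6+Sp8 cKO and 278 CPM (271 to 285) in the wildtype library. The ratio to wildtype was 1.02 (0.974 to 1.06) for the Sp6 cKO, 0.990 (0.949 to 1.03) for the Sp8 cKO and 0.967 (0.929 to 1.01) for the Sp6+Sp8 cKO, and all 3 intervals include 1. Within batch 1 the ratio was 0.952 (0.910 to 0.996) for the Sp6+Sp8 cKO against the Sp6 cKO. This interval narrowly leaves out 1, but includes it when libraries are scaled by their totals instead of TMM. The ratio was 0.976 (0.933 to 1.02) for the Sp6+Sp8 cKO against the Sp8 cKO and 1.03 (0.979 to 1.07) for the Sp6 cKO against the Sp8 cKO. The relative levels of the genes were also alike: across the 30 Hox genes that reached 1 CPM in any library, log2 levels of pairs of libraries had Pearson correlations of 0.955 to 0.981. These genes share their libraries and range widely in level, so the correlation is a description only.

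Of the 38 Hox genes, 30 reached 1 CPM in at least 1 library and 26 in all 4. At least 10 CPM in every library was reached by 7 genes, Hoxa3, Hoxa7, Hoxa9, Hoxa13, Hoxc8, Hoxc11 and Hoxd13. The other 8 genes stayed below 1 CPM throughout, among them Hoxb1, Hoxb2, Hoxb7, Hoxb13, Hoxd1 and Hoxd3. Of these, Hoxd1 had 0 counts in every library. Hoxb1 had 1 count, in the Sp6+Sp8 cKO, and Hoxb13 had 1 count, in the Sp6 cKO. Hoxb13, at the 5′ end of its cluster, was thus near 0 while its paralogues Hoxa13 and Hoxd13 were among the most abundant members.

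To compare levels between genes, CPM was divided by the exon length of the gene in kilobases. The highest member on this scale was Hoxa9, a gene of the upper limb segment and of blood stem cells, with 10.4 CPM per kb in the Sp6 cKO, 12.1 in the Sp8 cKO, 10.1 in the Sp6+Sp8 cKO and 11.6 in the wildtype library. Hoxc11, a gene of the hindlimb and tail region, had 9.97 CPM per kb in the Sp6 cKO, 10.6 in the Sp8 cKO, 9.33 in the Sp6+Sp8 cKO and 9.92 in the wildtype library. Hoxa7, a trunk gene, had 9.76 CPM per kb in the Sp6 cKO, 8.58 in the Sp8 cKO, 8.88 in the Sp6+Sp8 cKO and 8.99 in the wildtype library. These genes held the first 3 places in every library. When the longest transcript was taken as the length, Hoxa7 stood above Hoxc11, so the order of these neighbours rests on the length chosen.

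The digit genes Hoxd13 and Hoxa13 came next by their mean over libraries. Hoxd13 had 7.78 CPM per kb in the Sp6 cKO, 6.78 in the Sp8 cKO, 8.40 in the Sp6+Sp8 cKO and 6.24 in the wildtype library. Hoxa13 had 7.09 CPM per kb in the Sp6 cKO, 5.75 in the Sp8 cKO, 6.89 in the Sp6+Sp8 cKO and 7.16 in the wildtype library. Hoxd13 stood above Hoxa13 in the 3 cKO libraries and below it in the wildtype library, where it was also below Hoxc10. The remaining members of the 12 highest were Hoxc10, Hoxc8, Hoxa10, Hoxb9, Hoxc5, Hoxc6 and Hoxa11, with means of 5.77 down to 2.66 CPM per kb. With the longest transcript as the length, 11 of these 12 genes were again among the 12 highest.

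**Figure D1:**
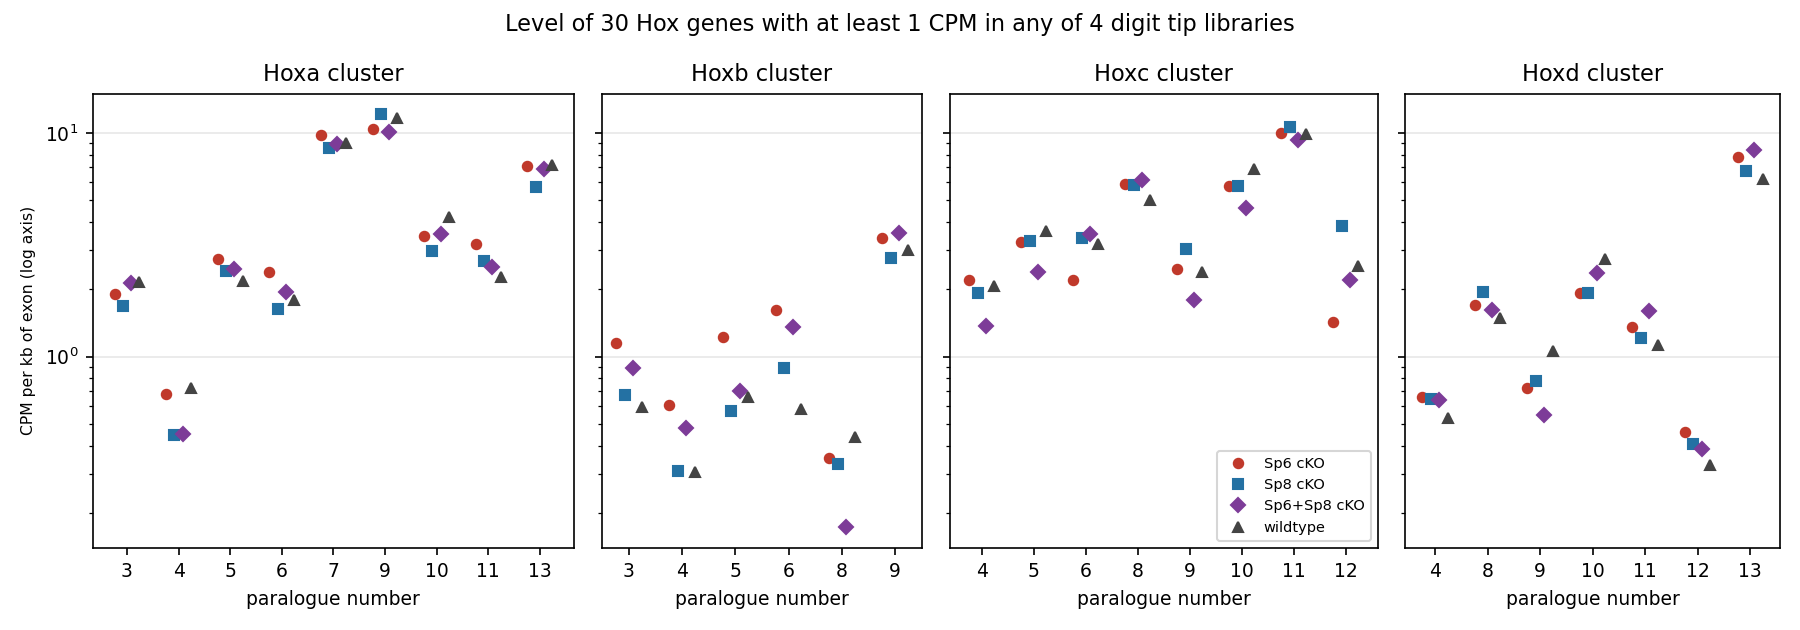
Level of the 30 Hox genes with at least 1 CPM in any library, in CPM per kb of exon on a log axis, with a panel for each cluster and genes in order of paralogue number along the horizontal axis. Markers run from the Sp6 cKO over the Sp8 cKO and the Sp6+Sp8 cKO to the wildtype library. Hoxa9, Hoxc11 and Hoxa7 are the highest genes in every library, and Hoxa13 and Hoxd13 lie between 5.75 and 8.40 CPM per kb.

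Of all Hox counts, genes of paralogue groups 9 to 13 held 61.3% (59.7 to 62.9) in the Sp6 cKO, 64.1% (62.5 to 65.7) in the Sp8 cKO, 62.6% (61.1 to 64.1) in the Sp6+Sp8 cKO and 64.3% (63.1 to 65.5) in the wildtype library. Genes of groups 1 to 4 held 10.2% in the Sp6 cKO, 8.39% in the Sp8 cKO, 9.42% in the Sp6+Sp8 cKO and 9.21% in the wildtype library. Posterior members thus outweighed anterior ones in each library, and the shares differed by a few percentage points between libraries. Of the summed level per kb of exon, Hoxa genes held 42.7% in the Sp6 cKO, 40.4% in the Sp8 cKO, 41.8% in the Sp6+Sp8 cKO and 42.8% in the wildtype library. Hoxc genes held 33.4% in the Sp6 cKO, 39.1% in the Sp8 cKO, 33.4% in the Sp6+Sp8 cKO and 36.8% in the wildtype library. Hoxb genes held the smallest part on this scale, with 9.15% in the Sp6 cKO, 6.27% in the Sp8 cKO, 8.25% in the Sp6+Sp8 cKO and 6.42% in the wildtype library.

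Promoter windows are shown for 4 members: Hoxa13 and Hoxd13, the digit genes among the highest members, and Hoxb4 and Hoxb8, which lie in the stretch of the Hoxb cluster where levels differed between libraries. Each window runs from 250 bases before to 50 after the RefSeq start on GRCm38.p6, read 5′ to 3′ on the strand of the gene. Capitals mark the GC box, the textbook binding site of the Sp family, searched as GGGCGG or its complement CCGCCC with overlapping matches counted. Hoxa13 (chr6:52260831-52261130, minus strand) held 6 matches and Hoxd13 (chr2:74667975-74668274, plus strand) held 7. Hoxb4 (chr11:96318017-96318316, plus strand) held 0 and Hoxb8 (chr11:96281655-96281954, plus strand) held 1.
Hoxa13: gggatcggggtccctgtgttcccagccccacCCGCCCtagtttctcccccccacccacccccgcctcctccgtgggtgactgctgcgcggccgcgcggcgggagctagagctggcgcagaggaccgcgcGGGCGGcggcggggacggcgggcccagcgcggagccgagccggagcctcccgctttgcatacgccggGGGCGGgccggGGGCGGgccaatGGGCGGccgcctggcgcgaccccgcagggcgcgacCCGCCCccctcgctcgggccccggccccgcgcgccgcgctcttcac
Hoxd13: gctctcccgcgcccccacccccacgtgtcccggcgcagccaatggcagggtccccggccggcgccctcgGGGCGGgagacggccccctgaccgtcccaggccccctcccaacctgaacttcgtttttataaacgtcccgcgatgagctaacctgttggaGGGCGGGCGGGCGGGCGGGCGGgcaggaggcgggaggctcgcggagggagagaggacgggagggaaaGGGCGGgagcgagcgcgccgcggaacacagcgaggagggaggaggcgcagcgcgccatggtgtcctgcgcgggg
Hoxb4: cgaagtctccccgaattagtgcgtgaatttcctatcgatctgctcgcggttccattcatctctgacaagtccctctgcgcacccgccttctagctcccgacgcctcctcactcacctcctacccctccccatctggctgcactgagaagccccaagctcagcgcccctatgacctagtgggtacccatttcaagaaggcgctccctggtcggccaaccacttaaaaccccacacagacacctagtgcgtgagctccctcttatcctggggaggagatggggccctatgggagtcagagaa
Hoxb8: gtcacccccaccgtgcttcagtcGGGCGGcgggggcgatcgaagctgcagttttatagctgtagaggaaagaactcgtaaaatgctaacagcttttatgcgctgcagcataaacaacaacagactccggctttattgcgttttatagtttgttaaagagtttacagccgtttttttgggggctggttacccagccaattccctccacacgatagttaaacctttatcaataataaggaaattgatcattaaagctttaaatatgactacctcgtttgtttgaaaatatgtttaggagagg
A RefSeq window was matched by symbol for 22 of the 38 members, with 24 windows. A GC box was present in 10 of these 24 windows (41.7%), against 35.7% of the 32851 windows of all genes. The CACCC box (CACCC or GGGTG), bound by related zinc finger factors, was present in 66.7% of Hox windows, against 57.5% of all windows. Hox windows also had more G and C, with a median of 57.7%, against 52.7% in all windows. A match is a run of letters and does not show binding.

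Ratios between libraries were read with fixed size rules. A gene could pass if it had at least 1 CPM in at least 1 of the 2 libraries compared. It passed the 2-fold rule with an absolute log2 ratio of at least 1, on TMM-scaled CPM with a prior count of 2, and a counting interval that excluded a ratio of 1. The 1.5-fold rule was the same with a ratio of 1.5. For the Sp6 cKO against wildtype, 1 of 30 Hox genes passed at 2-fold (3.33%, against 4.4% of all genes), and 4 passed at 1.5-fold (13.3%, against 9.09%). For the Sp8 cKO against wildtype, 0 of 29 passed at either size, against 3.82% and 8.16% of all genes. For the Sp6+Sp8 cKO against wildtype, 2 of 29 passed at 2-fold (6.90%, against 5.79%) and 5 at 1.5-fold (17.2%, against 13.8%). The shares of Hox genes thus lay near those of all genes in the comparisons with wildtype.

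Within batch 1, 0 of 29 Hox genes passed at 2-fold for the Sp6+Sp8 cKO against the Sp6 cKO, against 3.97% of all genes, and 3 passed at 1.5-fold (10.3%, against 9.53%). For the Sp6+Sp8 cKO against the Sp8 cKO, 0 of 28 passed at 2-fold, against 4.68%, and 2 passed at 1.5-fold (7.14%, against 10.9%). For the Sp6 cKO against the Sp8 cKO, 2 of 29 passed at 2-fold (6.90%, against 3.1%) and 5 at 1.5-fold (17.2%, against 6.02%). The share of Hox genes exceeded that of all genes most in this last comparison. There the median absolute log2 ratio of Hox genes was 0.20, against 0.14 over all genes, and the median log2 ratio was 0.17, against -0.0015. A higher median absolute log2 ratio of Hox genes was not particular to this comparison. It was above that of all genes in every comparison, and was 0.27, against 0.16, in the Sp6 cKO against wildtype. Of 30 Hox genes that could pass in any of the 6 comparisons, 10 passed the 1.5-fold rule at least once (33.3%, against 26.3% of all genes).

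**Figure D2:**
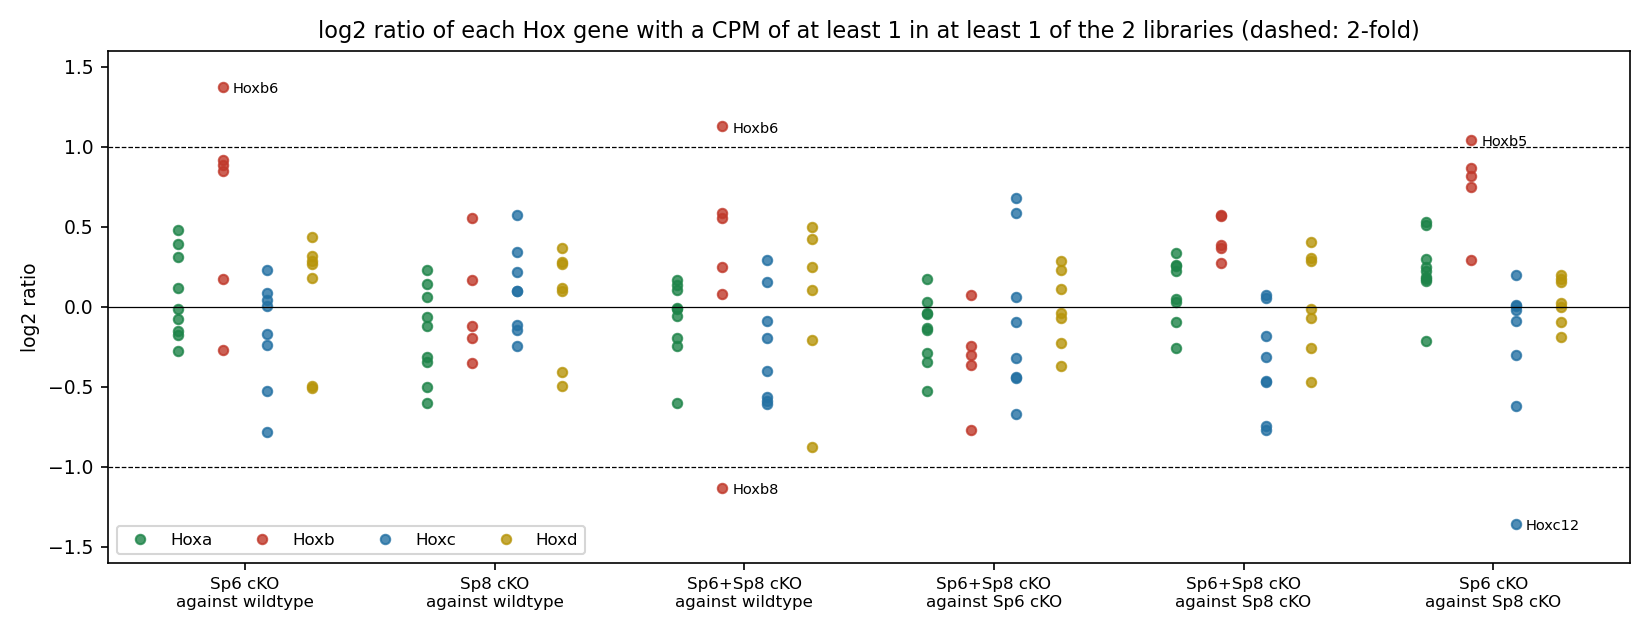
The log2 ratio of each Hox gene (vertical axis) in the 6 comparisons (horizontal axis), coloured by cluster, for genes with at least 1 CPM in at least 1 of the 2 libraries compared. Dashed lines mark the 2-fold size, and the genes past it are Hoxb6 (1.37 in the Sp6 cKO and 1.13 in the Sp6+Sp8 cKO against wildtype), Hoxb8 (-1.13 in the Sp6+Sp8 cKO against wildtype), Hoxb5 (1.04) and Hoxc12 (-1.36), both in the Sp6 cKO against the Sp8 cKO.

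The Hoxb cluster differed most between libraries. Its summed level was 24.1 CPM (21.5 to 26.9) in the Sp6 cKO, 16.0 CPM (13.8 to 18.3) in the Sp8 cKO, 20.5 CPM (18.3 to 22.9) in the Sp6+Sp8 cKO and 16.4 CPM (14.8 to 18.2) in the wildtype library. The ratio to wildtype was 1.47 (1.26 to 1.71) for the Sp6 cKO, 0.972 (0.813 to 1.16) for the Sp8 cKO and 1.25 (1.07 to 1.46) for the Sp6+Sp8 cKO. Within batch 1, the Sp6 cKO was 1.51-fold (1.26 to 1.81) and the Sp6+Sp8 cKO 1.29-fold (1.08 to 1.54) above the Sp8 cKO. The Sp8 cKO library thus stood within counting error of wildtype, and both libraries with Sp6 deleted stood above it.

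**Figure D3:**
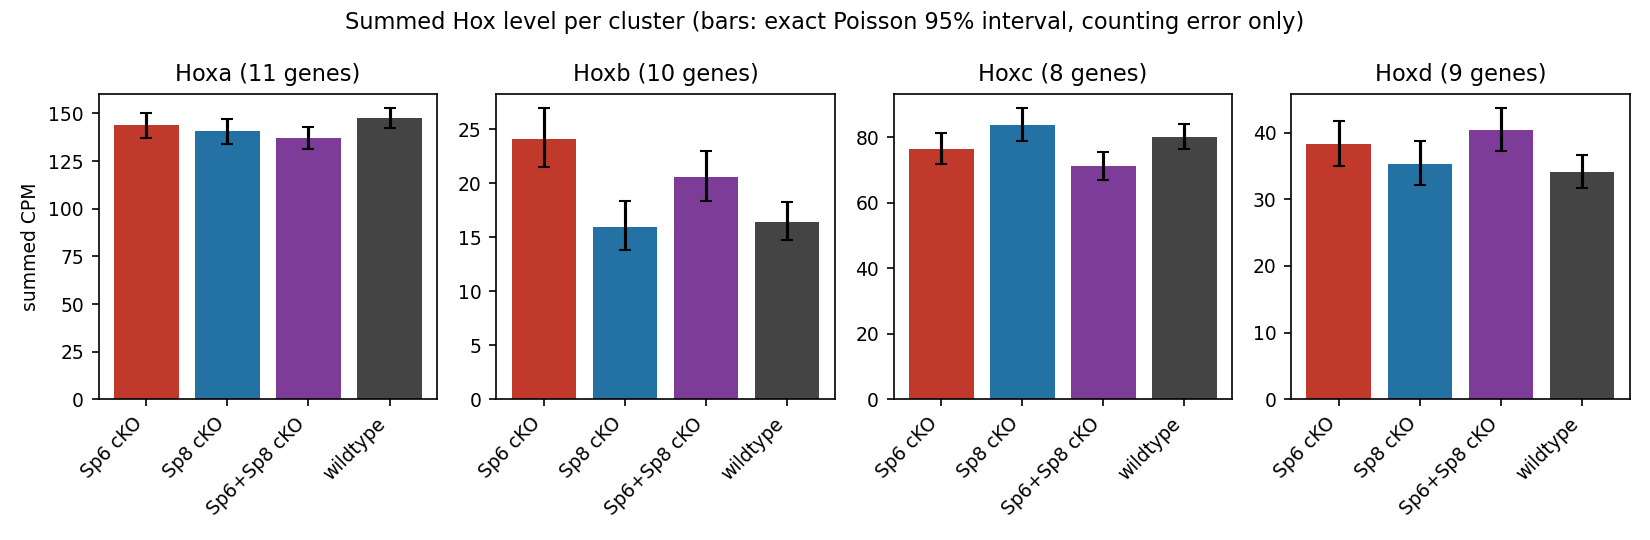
Summed level of each Hox cluster in CPM (vertical axis, from 0, on a scale of its own in each panel) in the Sp6 cKO, the Sp8 cKO, the Sp6+Sp8 cKO and the wildtype library; error bars are exact Poisson 95% intervals for counting error. The Hoxb panel shows the widest spread, from 24.1 CPM in the Sp6 cKO to 16.0 CPM in the Sp8 cKO and 16.4 CPM in the wildtype library.

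Hoxb6 (chr11:96292476-96301569), which acts in the identity of thoracic segments, had 3.18 CPM (41 counts) in the Sp6 cKO, 1.75 CPM (22 counts) in the Sp8 cKO, 2.66 CPM (41 counts) in the Sp6+Sp8 cKO and 1.15 CPM (25 counts) in the wildtype library. It rose past the 2-fold rule against wildtype in the Sp6 cKO, by 2.76-fold (1.64 to 4.74), and in the Sp6+Sp8 cKO, by 2.32-fold (1.38 to 3.98). All 3 cKO libraries were above wildtype for this gene, but the log2 ratio of 0.55 in the Sp8 cKO did not pass. The Sp6 cKO was also 1.82-fold (1.06 to 3.21) above the Sp8 cKO, past the 1.5-fold rule.

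Hoxb3 (chr11:96323326-96347930), an anterior gene known for patterning the hindbrain, had 4.88 CPM (63 counts) in the Sp6 cKO, 2.86 CPM (36 counts) in the Sp8 cKO, 3.77 CPM (58 counts) in the Sp6+Sp8 cKO and 2.53 CPM (55 counts) in the wildtype library. It rose past the 1.5-fold rule in the Sp6 cKO, by 1.93-fold (1.32 to 2.82) against wildtype and by 1.71-fold (1.12 to 2.65) against the Sp8 cKO. The Sp6+Sp8 cKO lay between the Sp6 cKO and the others and passed against none of them.

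Hoxb5 (chr11:96303336-96306121), which patterns the neck and shoulder region, had 3.41 CPM (44 counts) in the Sp6 cKO, 1.59 CPM (20 counts) in the Sp8 cKO, 1.95 CPM (30 counts) in the Sp6+Sp8 cKO and 1.84 CPM (40 counts) in the wildtype library. It was high in the Sp6 cKO alone, 1.85-fold (1.18 to 2.92) above wildtype and 2.15-fold (1.24 to 3.85) above the Sp8 cKO, the second past the 2-fold rule. The Sp6+Sp8 cKO was 1.75-fold (1.08 to 2.88) below the Sp6 cKO. The Sp6+Sp8 cKO was thus near wildtype for Hoxb5, unlike for Hoxb6.

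Hoxb4 (chr11:96318267-96321638), known for the growth of blood stem cells, had 1.55 CPM (20 counts) in the Sp6 cKO, 0.794 CPM (10 counts) in the Sp8 cKO, 1.23 CPM (19 counts) in the Sp6+Sp8 cKO and 0.782 CPM (17 counts) in the wildtype library. Its ratio of the Sp6 cKO to wildtype was 1.98 (0.987 to 4.03), and it did not pass because the interval included 1. The 4 libraries stood in the same order as for Hoxb3, with fewer counts.

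Hoxb8 (chr11:96281905-96285315), a gene of the trunk and of blood precursors, stood in another order, with 0.930 CPM (12 counts) in the Sp6 cKO, 0.873 CPM (11 counts) in the Sp8 cKO, 0.455 CPM (7 counts) in the Sp6+Sp8 cKO and 1.15 CPM (25 counts) in the wildtype library. It fell past the 2-fold rule in the Sp6+Sp8 cKO, by 2.53-fold (1.06 to 6.92) against wildtype. Hoxb9, the most abundant gene of the cluster, had 8.68 CPM in the Sp6 cKO, 7.07 in the Sp8 cKO, 9.16 in the Sp6+Sp8 cKO and 7.68 in the wildtype library and passed in no comparison. Hoxb2 and Hoxb7 stayed below 1 CPM. The Hoxb genes past a rule were thus Hoxb3, Hoxb5 and Hoxb6, which rose, and Hoxb8, which fell. Hoxb1, Hoxb2, Hoxb7 and Hoxb13 were below the floor of 1 CPM and could not pass. The place in the cluster of the genes that passed therefore rests in part on that floor. Hoxb9 still added to the higher Hoxb sum of the Sp6+Sp8 cKO, at 9.16 CPM against 7.07 in the Sp8 cKO and 7.68 in the wildtype library. Hoxb3 to Hoxb6 and Hoxb8 were under 5 CPM in every library, so none of them passes where at least 5 CPM is required.

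The neighbours Hoxb3 to Hoxb6, a group chosen after their values were seen, summed to 13.03 CPM in the Sp6 cKO, 6.99 CPM in the Sp8 cKO, 9.62 CPM in the Sp6+Sp8 cKO and 6.30 CPM in the wildtype library. Their ratio to wildtype was 2.07 (1.64 to 2.61) for the Sp6 cKO, 1.11 (0.838 to 1.46) for the Sp8 cKO and 1.53 (1.20 to 1.94) for the Sp6+Sp8 cKO. The rest of the cluster summed to 11.1 CPM in the Sp6 cKO, 8.97 CPM in the Sp8 cKO, 10.9 CPM in the Sp6+Sp8 cKO and 10.1 CPM in the wildtype library, and its ratio of the Sp6 cKO to wildtype was 1.10 (0.881 to 1.36). T cell markers were high in the same libraries: the 5 markers summed to 19.5 CPM in the Sp6 cKO, 7.14 in the Sp8 cKO, 17.7 in the Sp6+Sp8 cKO and 2.90 in the wildtype library. Of these, Cd3e, Cd3g and Trdc passed the 2-fold rule against wildtype in both the Sp6 cKO and the Sp6+Sp8 cKO. In the Sp8 cKO, Cd3e, Trdc and Trac rose past the 1.5-fold rule against wildtype, and Trac reached 1 CPM in that library alone. None of the 5 was at 0 in any library. The part of T cells in the Hoxb levels was not tested.

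**Figure D4:**
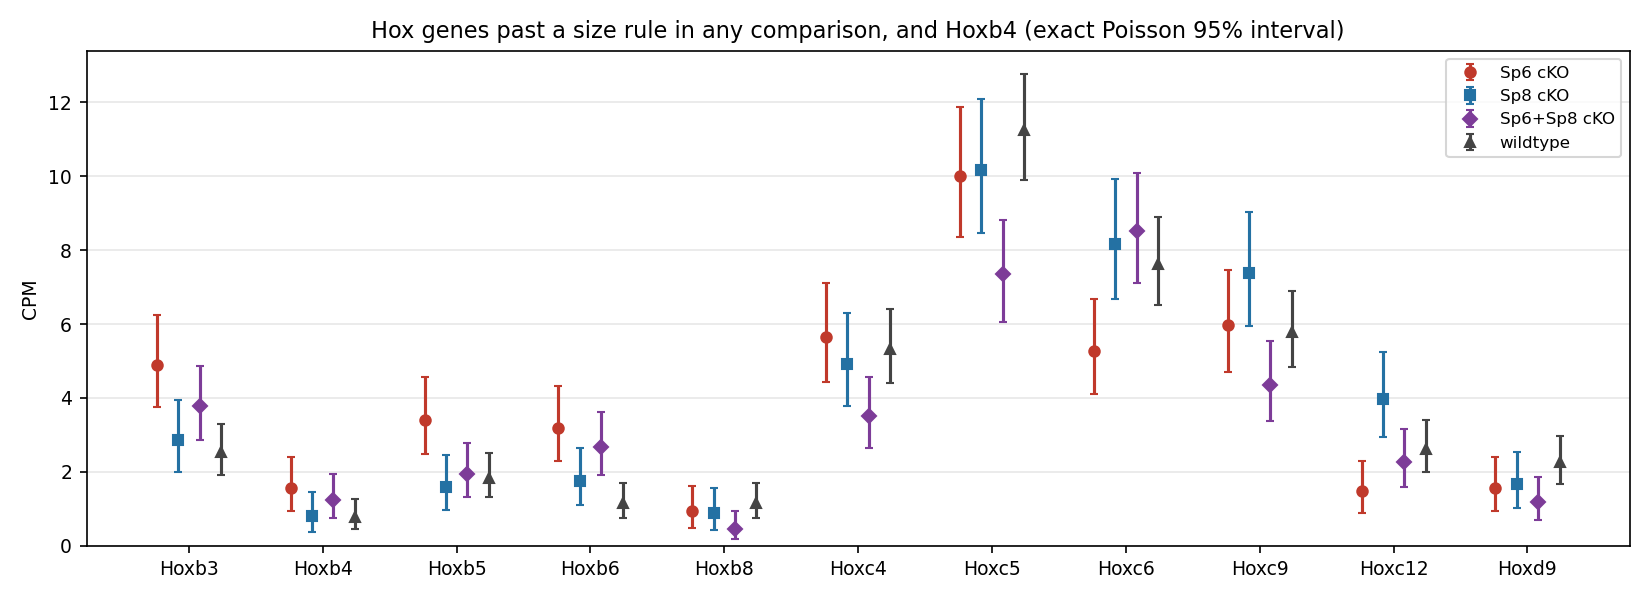
Level in CPM (vertical axis, from 0) of the 10 Hox genes past the 1.5-fold rule in any comparison, and of Hoxb4, with the Sp6 cKO at the left of each gene, then the Sp8 cKO, the Sp6+Sp8 cKO and the wildtype library, and bars are exact Poisson 95% intervals for counting error. The Sp6 cKO is the highest library for Hoxb3, Hoxb4, Hoxb5 and Hoxb6 and the lowest for Hoxc6 and Hoxc12, and the Sp6+Sp8 cKO is the lowest for Hoxb8, Hoxc4, Hoxc5, Hoxc9 and Hoxd9.

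Because Hoxb and Sp6 share a stretch of chromosome 11, the genes between them were read in the same way. The lower end of Hoxb13 lies 819 kb and the upper end of Hoxb1 645 kb from the start of Sp6 at position 97013394 (GRCm38). Of 19 genes between Hoxb1 and Sp6, 10 could pass the rules. In the Sp6 cKO against wildtype 0 of these 10 passed, with log2 ratios of -0.34 to 0.50 and a median of 0.05. In the same comparison Hoxb3 stood at 0.92, Hoxb4 at 0.88, Hoxb5 at 0.85 and Hoxb6 at 1.37. Hoxb9 stood at 0.17 and Hoxb8 at -0.27, within the range of the 10 genes. In the Sp6 cKO against the Sp8 cKO, D030028A08Rik, which is among the 10, rose past the 2-fold rule with a log2 ratio of 1.56, where Hoxb5 stood at 1.04 and Hoxb6 at 0.82.

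In the Sp6+Sp8 cKO against wildtype 0 of the 10 passed at 2-fold, and 1 gene of no known function, D030028A08Rik, passed at 1.5-fold (log2 ratio 0.77). It had 7.06 CPM in the Sp6 cKO, 2.30 in the Sp8 cKO, 8.58 in the Sp6+Sp8 cKO and 4.97 in the wildtype library. It was lowest in the Sp8 cKO, where it fell past the 2-fold rule against wildtype (log2 ratio -1.07).

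**Figure D5:**
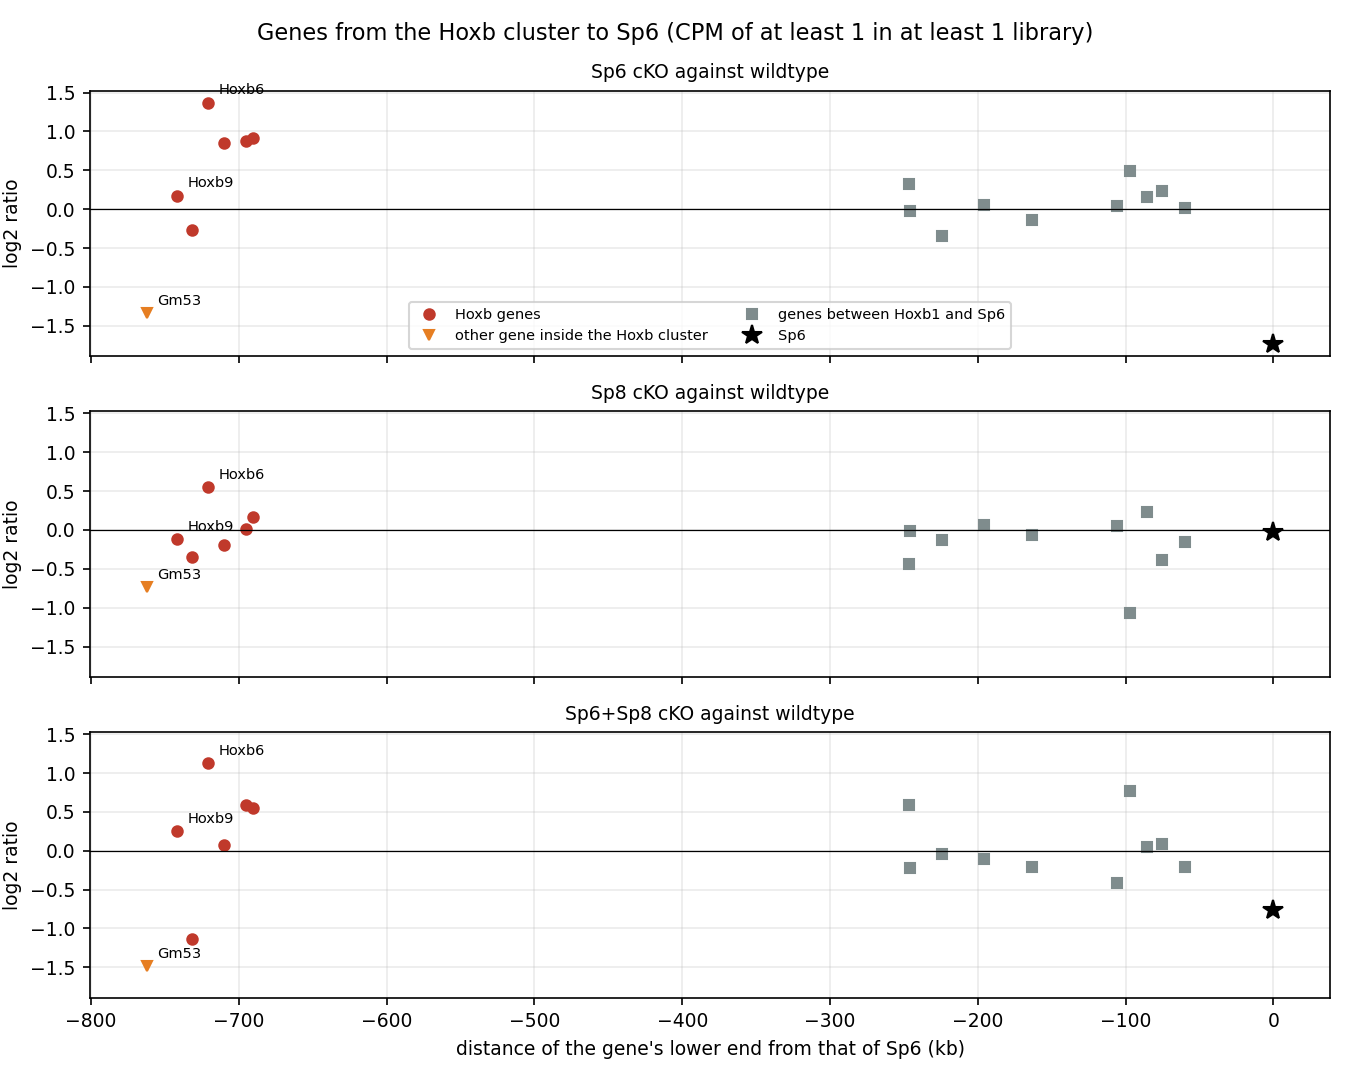
The log2 ratio to wildtype (vertical axis) of the Hoxb genes, of Gm53 inside the cluster, of the genes between Hoxb1 and Sp6 and of Sp6, against the distance of the lower end of each gene from that of Sp6 in kb (horizontal axis), with a panel for the Sp6 cKO, one for the Sp8 cKO and one for the Sp6+Sp8 cKO. In the Sp6 cKO panel Hoxb3 to Hoxb6 lie between 0.85 and 1.37, above all 10 genes between the cluster and Sp6, which reach at most 0.50, while Hoxb8 and Hoxb9 lie within their range.

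The Hoxc cluster was lowest in the Sp6+Sp8 cKO. Its sum was 76.4 CPM (71.7 to 81.3) in the Sp6 cKO, 83.7 CPM (78.7 to 88.9) in the Sp8 cKO, 71.2 CPM (67.0 to 75.5) in the Sp6+Sp8 cKO and 80.1 CPM (76.4 to 83.9) in the wildtype library. The ratio of the Sp6+Sp8 cKO to wildtype was 0.889 (0.823 to 0.959), and its ratio to the Sp8 cKO was 0.851 (0.781 to 0.926). The Hoxc genes past a size rule in the Sp6+Sp8 cKO against wildtype were Hoxc4 and Hoxc5, at the 3′ end of the cluster.

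Hoxc4 (chr15:103018934-103036852), an anterior gene, had 5.66 CPM (73 counts) in the Sp6 cKO, 4.92 CPM (62 counts) in the Sp8 cKO, 3.51 CPM (54 counts) in the Sp6+Sp8 cKO and 5.34 CPM (116 counts) in the wildtype library. It fell past the 1.5-fold rule in the Sp6+Sp8 cKO, by 1.52-fold (1.09 to 2.14) against wildtype and by 1.61-fold (1.12 to 2.34) against the Sp6 cKO. Hoxc5 had 10.0 CPM (129 counts) in the Sp6 cKO, 10.2 CPM (128 counts) in the Sp8 cKO, 7.34 CPM (113 counts) in the Sp6+Sp8 cKO and 11.3 CPM (245 counts) in the wildtype library. It fell by 1.53-fold (1.22 to 1.93) in the Sp6+Sp8 cKO against wildtype. Both genes were thus lowest in the Sp6+Sp8 cKO and near wildtype in the single knockouts. With libraries scaled by their totals instead of TMM, neither passed against wildtype. The annotated span of Hoxc5, chr15:102967443-103017429, covers Hoxc9, Hoxc8 and Hoxc6 and part of Hoxc10, so counts assigned to these genes are uncertain.

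Of 15 lists of cell markers, 7 had their lowest sum in the Sp6+Sp8 cKO, 7 in the wildtype library and 1 in the Sp6 cKO. The 9 nail and hair keratin markers in the table summed to 5655 CPM in the Sp6 cKO, 6280 in the Sp8 cKO, 3097 in the Sp6+Sp8 cKO and 5407 in the wildtype library, and 6 of them fell past the 1.5-fold rule in the Sp6+Sp8 cKO against wildtype. The 8 suprabasal keratinocyte markers summed to 22976 CPM in the Sp6 cKO, 19338 in the Sp8 cKO, 16667 in the Sp6+Sp8 cKO and 23274 in the wildtype library, and 4 of them fell past that rule. The 6 chondrocyte markers summed to 345 CPM in the Sp6 cKO, 324 in the Sp8 cKO, 272 in the Sp6+Sp8 cKO and 342 in the wildtype library, and of the 4 that could pass, 2 fell past the 2-fold rule. The median log2 ratio of the Sp6+Sp8 cKO to wildtype was -0.91 for the nail and hair keratin list, -0.56 for the suprabasal list and -0.67 for the chondrocyte list.

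Of the 12 fibroblast and limb mesenchyme markers 1 fell past the 1.5-fold rule in the Sp6+Sp8 cKO against wildtype, with sums of 16333 CPM in the Sp6 cKO, 15802 in the Sp8 cKO, 13021 in the Sp6+Sp8 cKO and 16471 in the wildtype library. Of the 6 endothelial markers 1 fell, with sums of 212 CPM in the Sp6 cKO, 217 in the Sp8 cKO, 164 in the Sp6+Sp8 cKO and 204 in the wildtype library. Schwann cell and adipocyte markers were the other lists lowest in the Sp6+Sp8 cKO. The part of these cell types in the Hoxc levels was not tested.

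Hoxc12 (chr15:102936757-102938609), near the 5′ end of the cluster, had 1.47 CPM (19 counts) in the Sp6 cKO, 3.97 CPM (50 counts) in the Sp8 cKO, 2.27 CPM (35 counts) in the Sp6+Sp8 cKO and 2.62 CPM (57 counts) in the wildtype library. It was lowest in the Sp6 cKO, where it fell by 2.69-fold (1.56 to 4.84) against the Sp8 cKO, past the 2-fold rule, and by 1.78-fold (1.04 to 3.17) against wildtype. The Sp6+Sp8 cKO was 1.74-fold (1.11 to 2.77) below the Sp8 cKO. Hoxc12 was thus highest where Sp8 alone was deleted and lower in both libraries with Sp6 deleted, but it was also lower in wildtype, at 2.62 CPM. Among the cKO libraries this order is the reverse of that of Hoxb3 and Hoxb6.

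Hoxc6 and Hoxc9 passed a rule only between cKO libraries. Hoxc6 had 5.27 CPM (68 counts) in the Sp6 cKO, 8.18 CPM (103 counts) in the Sp8 cKO, 8.51 CPM (131 counts) in the Sp6+Sp8 cKO and 7.63 CPM (166 counts) in the wildtype library. It was low in the Sp6 cKO, 1.55-fold (1.13 to 2.14) below the Sp8 cKO, and the Sp6+Sp8 cKO was 1.61-fold (1.20 to 2.20) above the Sp6 cKO. Hoxc9 had 5.97 CPM (77 counts) in the Sp6 cKO, 7.38 CPM (93 counts) in the Sp8 cKO, 4.35 CPM (67 counts) in the Sp6+Sp8 cKO and 5.80 CPM (126 counts) in the wildtype library, and the Sp6+Sp8 cKO was 1.70-fold (1.23 to 2.36) below the Sp8 cKO. The wildtype level lay between those of the cKO libraries for both genes.

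Hoxc8, Hoxc10 and Hoxc11 passed in no comparison. Hoxc8, of the lower trunk, had 16.7 CPM in the Sp6 cKO, 16.6 in the Sp8 cKO, 17.5 in the Sp6+Sp8 cKO and 14.3 in the wildtype library. Hoxc10, of the hindlimb, had 11.1 CPM in the Sp6 cKO, 11.03 in the Sp8 cKO, 8.84 in the Sp6+Sp8 cKO and 13.1 in the wildtype library. Hoxc11 was the steadiest of the 3, with 20.2 CPM in the Sp6 cKO, 21.4 in the Sp8 cKO, 18.8 in the Sp6+Sp8 cKO and 20.1 in the wildtype library, so its highest level was 1.14 times its lowest.

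The Hoxd cluster was highest in the Sp6+Sp8 cKO. It summed to 38.2 CPM (34.9 to 41.8) in the Sp6 cKO, 35.3 CPM (32.1 to 38.8) in the Sp8 cKO, 40.4 CPM (37.2 to 43.7) in the Sp6+Sp8 cKO and 34.1 CPM (31.7 to 36.7) in the wildtype library. The ratio of the Sp6+Sp8 cKO to wildtype was 1.18 (1.06 to 1.32). Hoxd13 (chr2:74668310-74671599), whose promoter window holds the most GC boxes of those shown above, had 19.3 CPM (249 counts) in the Sp6 cKO, 16.8 CPM (212 counts) in the Sp8 cKO, 20.9 CPM (321 counts) in the Sp6+Sp8 cKO and 15.5 CPM (337 counts) in the wildtype library. It made up about as much of the cluster as all its other genes, and without it the Hoxd log2 ratio of the Sp6+Sp8 cKO to wildtype was 0.066 in place of 0.24. Hoxd13 itself passed in no comparison.

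Hoxd9 (chr2:74697727-74700208), a gene of the upper limb segment, went against its cluster, with 1.55 CPM (20 counts) in the Sp6 cKO, 1.67 CPM (21 counts) in the Sp8 cKO, 1.17 CPM (18 counts) in the Sp6+Sp8 cKO and 2.25 CPM (49 counts) in the wildtype library. Wildtype was the highest library, and the Sp6+Sp8 cKO fell 1.93-fold (1.10 to 3.51) below it. Hoxd10 had 3.49 CPM in the Sp6 cKO, 3.49 in the Sp8 cKO, 4.29 in the Sp6+Sp8 cKO and 4.97 in the wildtype library, and Hoxd11, of the forearm and lower leg, had 5.74 CPM in the Sp6 cKO, 5.08 in the Sp8 cKO, 6.76 in the Sp6+Sp8 cKO and 4.74 in the wildtype library. Wildtype was the highest library for Hoxd10 and the lowest for Hoxd11. Neither passed, and nor did Hoxd4, Hoxd8 and Hoxd12, whose levels lay between 0.828 and 5.32 CPM in all libraries. The annotations of Hoxd3 and Hoxd4 overlap, which makes their counts uncertain.

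The Hoxa cluster was the most abundant. It summed to 144 CPM (137 to 150.4) in the Sp6 cKO, 141 CPM (134 to 147) in the Sp8 cKO, 137 CPM (131 to 143) in the Sp6+Sp8 cKO and 148 CPM (143 to 153) in the wildtype library. The ratio of the Sp6+Sp8 cKO to wildtype was 0.927 (0.877 to 0.980). Without Hoxa9, its most abundant gene, the sum was 85.4 CPM in the Sp6 cKO, 72.9 CPM in the Sp8 cKO, 80.4 CPM in the Sp6+Sp8 cKO and 82.9 CPM in the wildtype library. On that sum the Sp8 cKO was the lowest library, with a ratio of 0.879 (0.811 to 0.953) to wildtype, and the Sp6 cKO was 1.17-fold (1.07 to 1.28) above it.

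Hoxa13 (chr6:52257694-52260880), the digit gene of the cluster, had 17.5 CPM (226 counts) in the Sp6 cKO, 14.2 CPM (179 counts) in the Sp8 cKO, 17.0 CPM (262 counts) in the Sp6+Sp8 cKO and 17.7 CPM (385 counts) in the wildtype library. Hoxa11, which patterns the forearm and lower leg, had 7.29 CPM in the Sp6 cKO, 6.11 in the Sp8 cKO, 5.72 in the Sp6+Sp8 cKO and 5.20 in the wildtype library. Hoxa10, of the upper limb segment, had 11.3 CPM in the Sp6 cKO, 9.69 in the Sp8 cKO, 11.6 in the Sp6+Sp8 cKO and 13.8 in the wildtype library. Hoxa10 was thus highest and Hoxa11 lowest in wildtype. Hoxa3, of the pharyngeal arches, had 11.4 CPM in the Sp6 cKO, 10.2 in the Sp8 cKO, 12.9 in the Sp6+Sp8 cKO and 12.9 in the wildtype library, and Hoxa5, which patterns the lung and the shoulder, had 5.12 CPM in the Sp6 cKO, 4.52 in the Sp8 cKO, 4.61 in the Sp6+Sp8 cKO and 4.09 in the wildtype library. Hoxa3 to Hoxa7 and Hoxa9 also passed in no comparison, and their log2 ratios lay within the range of the cluster, -0.60 to 0.53 over the 6 comparisons. The annotated span of Hoxa3, chr6:52169062-52213336, covers Hoxa4, Hoxa5 and Hoxa6, so counts assigned to these genes are uncertain. Estimated counts were not whole in at least 1 library for 10 Hox genes, Hoxa3, Hoxa7, Hoxa9, Hoxa10, Hoxa11, Hoxb2, Hoxc6, Hoxd3, Hoxd4 and Hoxd11, so reads were split there between features.

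Sums over paralogues differed by more than counting error in at least 1 comparison for 9 of the 13 groups. Of 78 ratios, 19 had an interval that leaves out 1. The ratios share the same 4 libraries and no like share was worked out for other genes, so these counts are a description only. Group 12, with Hoxc12 and Hoxd12, had a ratio of 0.527 (0.337 to 0.812) for the Sp6 cKO against the Sp8 cKO, 0.650 (0.439 to 0.957) for the Sp6+Sp8 cKO against the Sp8 cKO and 1.45 (1.02 to 2.05) for the Sp8 cKO against wildtype. The Sp6+Sp8 cKO was below the Sp6 cKO for group 4, with a ratio of 0.718 (0.553 to 0.930), and for group 5, with 0.751 (0.621 to 0.906). Against wildtype, the ratio of the Sp6+Sp8 cKO was 0.885 (0.820 to 0.955) for group 9 and 1.24 (1.02 to 1.51) for group 6.

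Group 10, of the upper limb segment and lower back, summed to 25.9 CPM (23.2 to 28.8) in the Sp6 cKO, 24.2 CPM (21.6 to 27.1) in the Sp8 cKO, 24.7 CPM (22.3 to 27.3) in the Sp6+Sp8 cKO and 31.8 CPM (29.5 to 34.3) in the wildtype library. Its ratio to wildtype was 0.814 (0.712 to 0.929) for the Sp6 cKO, 0.761 (0.663 to 0.872) for the Sp8 cKO and 0.776 (0.683 to 0.881) for the Sp6+Sp8 cKO. Within batch 1 the ratios were 1.07 (0.913 to 1.25) for the Sp6 cKO against the Sp8 cKO and 1.02 (0.875 to 1.19) for the Sp6+Sp8 cKO against the Sp8 cKO. These cKO libraries thus lay within counting error of each other and below wildtype, where knockout and batch cannot be told apart. Group 13, the digit genes, summed to 36.9 CPM (33.7 to 40.4) in the Sp6 cKO, 31.0 CPM (28.0 to 34.3) in the Sp8 cKO, 37.9 CPM (34.9 to 41.1) in the Sp6+Sp8 cKO and 33.2 CPM (30.8 to 35.7) in the wildtype library, and the Sp6+Sp8 cKO was 1.22-fold (1.07 to 1.39) above the Sp8 cKO.

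Of the noncoding genes of the Hox clusters, 44 were in the table and 8 reached 1 CPM in any library. Gm53 (chr11:96251105-96264868), an intergenic RNA gene between Hoxb13 and Hoxb9, had 34.0 CPM (439 counts) in the Sp6 cKO, 51.8 CPM (653 counts) in the Sp8 cKO, 30.9 CPM (475 counts) in the Sp6+Sp8 cKO and 86.5 CPM (1880 counts) in the wildtype library. It fell past the 2-fold rule against wildtype in the Sp6 cKO, by 2.54-fold (2.29 to 2.82), and in the Sp6+Sp8 cKO, by 2.80-fold (2.53 to 3.10), and past the 1.5-fold rule in the Sp8 cKO, by 1.67-fold (1.53 to 1.83). Within batch 1 it was lower in the Sp6 cKO, by 1.52-fold (1.35 to 1.72), and in the Sp6+Sp8 cKO, by 1.68-fold (1.49 to 1.89), than in the Sp8 cKO. Gm53 thus moved in the direction opposite to Hoxb3 and Hoxb6 of the same cluster. Hoxaas2, a noncoding gene of the Hoxa cluster, rose in the Sp8 cKO, by 1.93-fold (1.18 to 3.16) against wildtype. Hotair, an antisense RNA of the Hoxc cluster, had 8.14 CPM in the Sp6 cKO, 11.4 in the Sp8 cKO, 11.2 in the Sp6+Sp8 cKO and 8.92 in the wildtype library and passed in no comparison. The sources used here do not say whether counting used the strand, so antisense genes are uncertain.

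Few partners and regulators of the Hox proteins passed a rule. Of all genes, 3.1% to 5.79% passed at 2-fold and 6.02% to 13.8% at 1.5-fold in a comparison. Low counts in lists this short are therefore no trait of these genes. Of 9 TALE class cofactors, which bind DNA together with Hox proteins, 8 could pass and 0 passed at 2-fold in any comparison, with median log2 ratios between -0.02 and 0.12. Meis2 passed at 1.5-fold in the Sp8 cKO against wildtype. Meis1 had 59.5 CPM in the Sp6 cKO, 59.9 in the Sp8 cKO, 51.8 in the Sp6+Sp8 cKO and 62.6 in the wildtype library. Among 20 Polycomb and Trithorax genes, which keep Hox genes silent or active, Cbx8 was the only one past either rule. It had 3.02 CPM in the Sp6 cKO, 6.51 in the Sp8 cKO, 4.22 in the Sp6+Sp8 cKO and 4.74 in the wildtype library, and it fell 2.15-fold (1.45 to 3.24) in the Sp6 cKO against the Sp8 cKO. The medians of this list lay between -0.02 and 0.05. Among 19 measured genes flanking the clusters, 0 passed at 2-fold in any comparison, with medians between -0.07 and 0.02. At 1.5-fold Snx10 rose in the Sp8 cKO against wildtype.

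Genes that mark the limb of origin varied. Pitx1, a hindlimb gene, had 2.56 CPM (33 counts) in the Sp6 cKO, 1.11 CPM (14 counts) in the Sp8 cKO, 1.30 CPM (20 counts) in the Sp6+Sp8 cKO and 1.43 CPM (31 counts) in the wildtype library, and it rose past the 2-fold rule in the Sp6 cKO against the Sp8 cKO, by 2.30-fold (1.20 to 4.66), and past the 1.5-fold rule in the Sp6 cKO against wildtype, by 1.79-fold (1.07 to 3.03). The Sp6+Sp8 cKO was 1.97-fold (1.10 to 3.62) below the Sp6 cKO. Tbx4, also of the hindlimb, had 11.5 CPM in the Sp6 cKO, 13.3 in the Sp8 cKO, 7.86 in the Sp6+Sp8 cKO and 12.6 in the wildtype library. It fell past the 1.5-fold rule in the Sp6+Sp8 cKO, with a log2 ratio of -0.67 against wildtype and -0.75 against the Sp8 cKO. Tbx5, of the forelimb, had 6.59 CPM in the Sp6 cKO, 4.76 in the Sp8 cKO, 3.96 in the Sp6+Sp8 cKO and 5.52 in the wildtype library, and it fell in the Sp6+Sp8 cKO by 1.66-fold (1.18 to 2.35) against the Sp6 cKO. Pitx1 was thus highest in the library where Hoxb3 to Hoxb6 were highest, and Tbx4 lowest in the library where Hoxc4 and Hoxc5 were lowest. These hindlimb genes did not run together, as Tbx4 was highest and Pitx1 lowest in the Sp8 cKO. Each library held RNA of the forelimb gene and of both hindlimb genes, which does not show the limb of origin. The part of limb origin in the Hox levels was not tested.

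Retinoic acid induces Hox genes in the embryo. Of 12 genes of its pathway, 1 rose and 2 fell past the 1.5-fold rule in the Sp6 cKO against wildtype, 2 rose and 2 fell in the Sp8 cKO, and 2 rose and 2 fell in the Sp6+Sp8 cKO. Cyp26a1, which degrades retinoic acid, had 2 counts in the Sp6 cKO, 2 in the Sp8 cKO, 2 in the Sp6+Sp8 cKO and 38 in the wildtype library, with a ratio to wildtype of 0.0887 (0.0104 to 0.343) in the Sp6 cKO. Rarb, a retinoic acid receptor gene, had 1.55 CPM (20 counts) in the Sp6 cKO, 3.57 CPM (45 counts) in the Sp8 cKO, 3.51 CPM (54 counts) in the Sp6+Sp8 cKO and 2.25 CPM (49 counts) in the wildtype library, and it fell past the 2-fold rule in the Sp6 cKO against the Sp8 cKO, by 2.30-fold (1.33 to 4.12). Rarb was thus lowest in the library where Hoxb3 to Hoxb6 were highest. It did not run opposite to them throughout, as wildtype had their lowest sum, 6.30 CPM, but not the highest Rarb. The part of retinoic acid in the Hox levels was not tested. Among 7 limb targets of Hoxa13 and Hoxd13, Shh alone passed at 2-fold, with 3.49 CPM (45 counts) in the Sp6 cKO, 2.14 CPM (27 counts) in the Sp8 cKO, 4.74 CPM (73 counts) in the Sp6+Sp8 cKO and 2.58 CPM (56 counts) in the wildtype library and a rise of 2.21-fold (1.41 to 3.58) in the Sp6+Sp8 cKO against the Sp8 cKO.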

How the data were processed

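RNA of 4 digit tip libraries was analysed as 1 library a group, and 1 column of the table that belongs to no listed sample was not used. The table holds estimated counts per gene as the authors deposited them, of which 84.6 to 87.1% per library are whole numbers. GRCm38, Salmon, STAR, featureCounts, edgeR, deepTools and Trim Galore 0.6.4 are named in the submitters' processing notes, without saying which of them made the table or which annotation was used. Libraries were poly-A selected and strand-specific, per the labels' protocols. Gene IDs were matched to GENCODE M21 (98.8% matched), which gave positions and exon lengths. Counts were rounded and scaled by TMM in edgeR 4.0.16 (R 4.3.3); DESeq2 1.42.0 size factors served as an alternative. Log2 ratios used a prior count of 2, levels have exact Poisson and ratios exact Clopper-Pearson 95% intervals, and reads are not independent molecules, so these cover counting error only. Size rules stood in for a test. Values per library are given for Hox genes past a rule or among the 12 highest per kb, and for a few genes of each list by the size of their ratio or their role.

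The members and lists were chosen with earlier results of these data known. The alternatives were library totals, DESeq2 size factors, other floors and prior counts, unrounded counts and other lengths. Some items are not reported here.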

Additional observations from a re-analysis of the deposited data

How the results depend on the processing

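No summed ratio with an interval that leaves out 1 changed sign under any alternative, and values of single genes moved by less than their counting intervals. With a floor of 5 CPM, 0 Hox genes passed at either size in the Sp6 cKO against wildtype, 0 at 2-fold and 2 at 1.5-fold (Hoxc4 and Hoxc5) in the Sp6+Sp8 cKO against wildtype, 1 at 1.5-fold (Hoxc9) in the Sp6+Sp8 cKO against the Sp8 cKO, and 0 at 2-fold and 1 at 1.5-fold (Hoxc6) in the Sp6 cKO against the Sp8 cKO. Hoxb3, Hoxb4, Hoxb5, Hoxb6 and Hoxb8 lie below that floor in every library. With no floor, 2 passed at 2-fold in the Sp6 cKO against wildtype (Hoxa2 was added) and 1 in the Sp6+Sp8 cKO against the Sp6 cKO (Hoxd3). With library totals, 3 passed at 1.5-fold in the Sp6+Sp8 cKO against wildtype, without Hoxc4 and Hoxc5. With a prior count of 0.5, 1 passed at 1.5-fold in the Sp8 cKO against wildtype (Hoxc12). Leaving out the most abundant gene of a cluster, chosen after seeing the data, gave log2 ratios of 0.82 for Hoxb in the Sp6 cKO against wildtype, -0.19 for Hoxa in the Sp8 cKO against wildtype, 0.066 for Hoxd in the Sp6+Sp8 cKO against wildtype, 0.14 in place of -0.038 for Hoxa in the Sp6+Sp8 cKO against the Sp8 cKO and 0.23 for Hoxa in the Sp6 cKO against the Sp8 cKO. It also turned the sign of Hoxa in the Sp6 cKO against wildtype (0.044 in place of -0.038), and of Hoxb (0.025 in place of -0.041) and Hoxd (-0.010 in place of 0.050) in the Sp8 cKO against wildtype. Other scalings moved a summed log2 ratio by at most 0.04. That was enough to bring 1 into the interval of the summed Hox ratio of the Sp6+Sp8 cKO to the Sp6 cKO, so intervals ending near 1 rest on the scaling. No paired analysis was possible because each group has 1 library, and no library could be left out. At this depth the 1.98-fold ratio of Hoxb4 in the Sp6 cKO to wildtype, with an interval of 0.987 to 4.03, was not detectable as a difference.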
